A study of Mus musculus with 8 samples.

Results

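Interferon-stimulated genes are the genes that cells switch on when an interferon binds its receptor. The list described here holds 37 of them, and 34 had a probe that RefSeq accessions name on the array. Of these, 33 genes were tested, out of 20581 genes tested on the whole array. The tested gene values came from mouse kidney RNA labelled with 1 dye and hybridised to 8 Agilent arrays, in 4 groups of 2. The WT normal group held left kidneys of wild-type males aged 16 weeks that had no surgery. The KD normal group held left kidneys of Keap1 knockdown males of the same age, also without surgery. The WT IRI and KD IRI groups held left kidneys of the same 2 genotypes at day 1 after ischemia-reperfusion injury, made by clamping the left renal vessels for 45 min while the right kidney kept its blood flow. The labels name no allele, strain or promoter for the knockdown, and they do not say whether an array holds 1 animal. The p-values therefore measure the spread between these arrays, which may be partly technical.

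Type I interferons signal through the kinases JAK1 and TYK2 to STAT factors, which join IRF9 into a complex that binds the interferon-stimulated response element (ISRE) of its target genes. Interferon gamma acts through a different DNA element, the gamma-activated site (GAS), and one of its best-known targets is Irf1, itself a transcription factor for antigen-processing genes. The products of the list block viruses at many steps: they sense or cut foreign RNA, hold virus particles on the cell, tag proteins with ISG15 or carry peptides to MHC class I molecules. KEAP1 is the adaptor that delivers the transcription factor NRF2 for destruction, so less KEAP1 leaves more NRF2 in the cell.

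The sequences that interferon factors read can be seen in the promoters of the members. RefSeq promoters (build GRCm38.p6, 250 bases before to 50 bases after each gene's start) were matched by symbol for 29 of the 37 members, with no entry used for Usp18, Dhx58, Oas2, Mx1, Mx2, Parp9, Parp14 and Rtp4. The ISRE core was searched as GAAA followed after 2 bases by a further GAAA, on both strands, with overlapping matches counted. It was present in 15 of the 29 members (51.7%), against 3.99% of the 27025 genes with a promoter. The GAS core TTCNNNGAA, which reads the same on both strands, was present in 7 of the 29 members (24.1%), against 9.55% of all genes. In Bst2 and Ifitm3 a GAS match overlapped an ISRE match. The 4 promoters shown first show how the ISRE core can stand alone or in overlapping repeats. They were taken in the order of the WT injury difference among members with a core, and the place of Oas3 in that order carries no weight, because its WT normal arrays were not well above background. Capitals mark the ISRE cores, and each line reads 5′ to 3′ along the gene's strand.
Oas3 (chr5:120777610-120777909, minus strand): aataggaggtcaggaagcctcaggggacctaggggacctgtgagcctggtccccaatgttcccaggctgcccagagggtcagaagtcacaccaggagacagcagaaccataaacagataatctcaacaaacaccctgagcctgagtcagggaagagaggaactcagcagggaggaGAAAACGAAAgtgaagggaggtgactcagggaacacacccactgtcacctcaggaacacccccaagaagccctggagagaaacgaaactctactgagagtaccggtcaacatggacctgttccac
Oas1a (chr5:120907476-120907775, minus strand): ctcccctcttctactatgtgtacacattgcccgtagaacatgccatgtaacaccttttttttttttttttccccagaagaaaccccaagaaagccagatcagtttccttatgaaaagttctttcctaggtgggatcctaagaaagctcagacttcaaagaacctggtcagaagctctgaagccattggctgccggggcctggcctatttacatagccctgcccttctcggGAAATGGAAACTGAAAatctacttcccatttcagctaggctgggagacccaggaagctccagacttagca
Bst2 (chr8:71537423-71537722, minus strand): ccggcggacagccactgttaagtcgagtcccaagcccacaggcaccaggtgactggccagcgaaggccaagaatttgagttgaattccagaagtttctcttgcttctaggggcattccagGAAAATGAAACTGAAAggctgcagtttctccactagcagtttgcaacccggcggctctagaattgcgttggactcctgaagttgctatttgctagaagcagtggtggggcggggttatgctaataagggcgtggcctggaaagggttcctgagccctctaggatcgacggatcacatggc
Isg15 (chr4:156200769-156201068, minus strand): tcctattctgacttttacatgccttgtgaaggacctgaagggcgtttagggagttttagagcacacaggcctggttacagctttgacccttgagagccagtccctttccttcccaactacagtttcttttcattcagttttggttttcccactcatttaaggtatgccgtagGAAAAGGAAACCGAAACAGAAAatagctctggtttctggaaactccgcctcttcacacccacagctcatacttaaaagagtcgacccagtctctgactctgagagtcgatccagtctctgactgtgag
The single core of Oas3 began 75 bases before the start of the gene. Oas1a held 2 overlapping cores, which began 20 and 14 bases before the start, and Bst2 held 2 that began 130 and 124 bases before it. Isg15 held 3 overlapping cores between 78 and 66 bases before the start. The promoter of Irf1, added after its values were seen because its level differed between the groups without injury, had no ISRE core in this window and 1 GAS core, in capitals below, which began 90 bases before the start.
Irf1 (chr11:53769764-53770063, plus strand): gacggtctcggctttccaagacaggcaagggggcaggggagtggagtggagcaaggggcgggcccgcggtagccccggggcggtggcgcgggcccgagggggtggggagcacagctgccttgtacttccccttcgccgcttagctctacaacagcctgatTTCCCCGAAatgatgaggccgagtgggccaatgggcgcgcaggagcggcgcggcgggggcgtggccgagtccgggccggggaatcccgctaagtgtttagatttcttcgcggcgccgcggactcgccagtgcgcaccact
Leaving out Oas3, members with an ISRE core had a median log2 injury response of 0.12 in WT (13 tested) and members without one a median of 0.20 (13 tested). In KD the medians were 0.24 and 0.56. A match describes these letters in this window and is neither a measured binding site nor a cause of a level.

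All levels below are log2 of the processed fluorescence intensity minus the log2 of that array's 75th percentile, so a level of 0 is as bright as the 75th percentile of its array. Levels of different genes are not set against each other, because probes differ in brightness. Differences are log2 differences of group means from limma, given ± the standard error (SE), with p-values adjusted over all 20581 genes by Benjamini-Hochberg and a threshold of 0.05. "Rose", "fell", "higher" and "lower" of a group mean are used as calls at that threshold. In these whole kidneys, fewer cells of a type and less RNA per cell cannot be told apart. No spot was saturated, between 62.1% and 67.8% of spots were well above background, and the correlation between the 2 arrays of a group was 0.989 to 0.994. Array 1 of every group lay on 1 slide and array 2 on the other, so each comparison could be taken within each slide. The 2 within-slide differences come from the same arrays and average to the group difference, so they are not independent support for it. The comparisons are not independent: the injury response of WT and the knockdown difference without injury share the WT normal arrays, and the injury response of KD shares the KD normal arrays with that difference.

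The tissue and the targeted gene matched the labels. All 6 proximal tubule markers were measured, with a summed linear level of 553 to 565 in WT normal. Keap1 stood at 2.75 and 2.66 on the WT normal arrays and at 2.66 and 2.50 on the WT IRI arrays, against 1.50 and 1.40 for KD normal and 1.33 and 1.04 for KD IRI. Its difference between KD and WT was -1.25 ± 0.12 without injury (adjusted p = 0.004) and -1.39 ± 0.12 after injury (adjusted p = 0.00546). Nqo1, a classical NRF2 target, was higher in KD by 1.34 ± 0.12 and 2.05 ± 0.12.

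**Figure D1:**
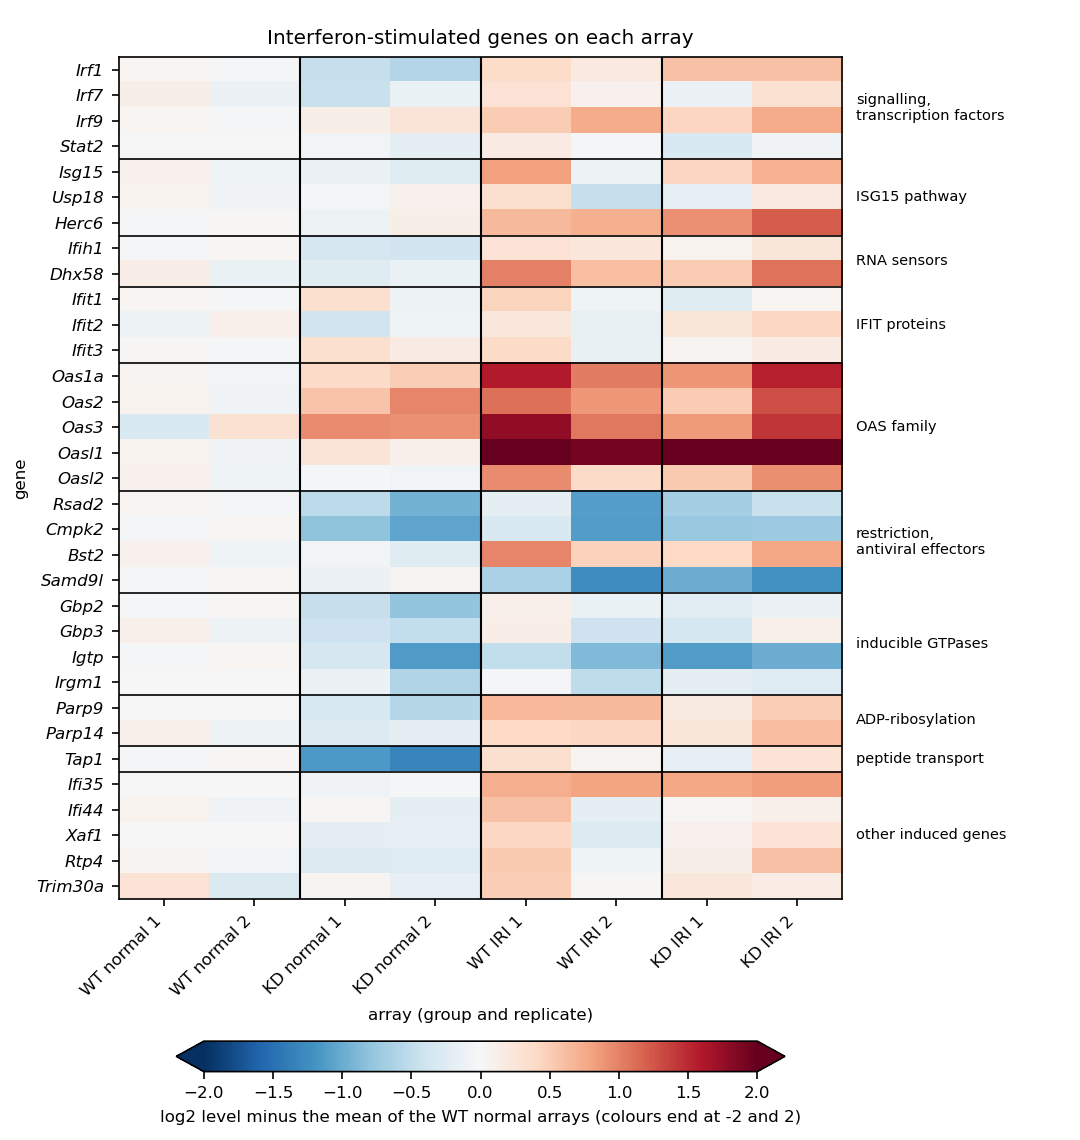
Log2 level of each of the 33 tested interferon-stimulated genes on each of the 8 arrays, as the difference from the mean of the WT normal arrays, with genes grouped by role. Oas1a, Oas2, Oasl1 and Oasl2 are red on all 4 injured arrays, Samd9l is blue on all 4, and Tap1 is bluest on the KD normal arrays. Oas1a and Oas2 are also red on both KD normal arrays.

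In wild-type kidneys at day 1 after injury, 13 of the 33 members rose and 1 fell, while 20.6% of all genes tested rose and 25.2% fell. One of the 13 was Oas3, which entered the test only through its detection in WT IRI, so its call is not read as a rise. Without it 12 of 32 members rose, and their median difference was 0.21, against -0.08 over all genes. Oas1a, Oas2, Oasl1 and Oasl2 rose in the OAS family, Irf1 and Irf9 rose among the transcription factors, and no IFIT protein gene and no interferon-inducible GTPase passed the threshold. With the slide as a block 3 members were lower in place of 1. This comparison asks how a kidney with normal Keap1 responds to the loss and return of its blood flow.

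The OAS proteins make a short oligonucleotide that activates RNase L, which cuts RNA, and the OAS-like proteins are their relatives. Of the 5 measured members, the 4 that were well above background on all 8 arrays rose in WT. Oasl1, which in mice limits the translation of Irf7 messenger RNA, stood at -2.09 and -2.24 in WT normal and at -0.17 and -0.25 in WT IRI. The injured arrays lay far above the uninjured ones, with a difference of 1.95 ± 0.12 (3.87-fold; adjusted p = 0.000102), the largest of any member. Oas1a stood at -1.89 and -2.01 before injury and at -0.37 and -0.93 after it, a difference of 1.30 ± 0.25 (adjusted p = 0.00601). Oas2 rose by 0.99 ± 0.27 and Oasl2 by 0.66 ± 0.20 (adjusted p = 0.0225 and 0.0356), and the Oas2 call was lost with normexp, an alternative background correction run on the median signals (1.06, adjusted p = 0.0872). With normexp the brightest probe was picked anew, so a gene with several probes may be represented by another probe. Oas3 was at the edge of detection: it was well above background on both WT IRI arrays (-4.80 and -5.51), on 1 of the KD IRI arrays (-5.71 and -5.15) and on none of the WT normal (-6.87 and -6.27) and KD normal arrays (-5.62 and -5.66). Its differences are therefore not read as changes, and no fold is given for it. Oas1a has close relatives in the mouse genome, so its probe may also bind their transcripts.

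Among the transcription factors, Irf9, the DNA-binding member of the complex at the ISRE, stood at -0.51 and -0.59 in WT normal and at -0.04 and 0.20 in WT IRI (difference 0.63 ± 0.14, adjusted p = 0.00965). Irf1 rose less, from 2.59 and 2.52 to 2.92 and 2.74 (0.28 ± 0.09, adjusted p = 0.039), a call that was lost with normexp (0.14, adjusted p = 0.645). Irf7, which amplifies type I interferon production, and Stat2 did not pass, with differences of 0.19 ± 0.19 and 0.07 ± 0.11. In the ISG15 pathway, Herc6, the mouse ligase that attaches ISG15 to proteins, rose by 0.68 ± 0.17 (adjusted p = 0.0151, and with normexp 0.97, adjusted p = 0.4). Its probe was dim, at -4.12 and -4.07 in WT normal and at -3.45 and -3.38 in WT IRI. Isg15 itself stood at -0.58 and -0.75 in WT normal and at 0.16 and -0.77 in WT IRI, so the injured arrays overlapped the uninjured ones (0.36 ± 0.27, adjusted p = 0.321). Usp18, which removes ISG15 and dampens the type I receptor, had a difference of -0.06 ± 0.25. Of the cytosolic RNA sensors, Dhx58 (LGP2) rose by 0.80 ± 0.23 (adjusted p = 0.0267), and Ifih1 (MDA5) had a difference of 0.26 ± 0.10 that missed the threshold (adjusted p = 0.0676).

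Genes that act on virus particles and nucleotides did not move together. Bst2 (tetherin), which holds budding virus on the cell surface, rose from 2.37 and 2.19 to 3.25 and 2.73 (0.71 ± 0.19, adjusted p = 0.0225). Samd9l, an interferon-induced restriction factor, fell from 0.67 and 0.72 to 0.05 and -0.55 (-0.94 ± 0.19, adjusted p = 0.00711). Rsad2 (viperin) and its genomic neighbour Cmpk2, which act together on nucleotides, had differences of -0.65 ± 0.28 and -0.71 ± 0.25 (adjusted p = 0.101 and 0.0517). Cmpk2 passed as lower with the slide as a block (adjusted p = 0.04), and Rsad2 did with normexp (adjusted p = 0.0138). The GTPases Gbp2, Gbp3, Igtp and Irgm1, which attack the vacuoles of intracellular microbes, had differences from -0.69 to -0.01. In limma none of these 4 passed after adjustment, and 1 of them, lower, had an unadjusted p under 0.05. Igtp, the lowest of them, passed as lower with the slide as a block (-0.69, adjusted p = 0.049, the same sign on both slides) and with normexp (-0.81, adjusted p = 0.000502). The 3 IFIT genes, whose products bind foreign RNA, had differences from 0.04 to 0.18, with none at an unadjusted p under 0.05.

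The ADP-ribosylation genes Parp9 and Parp14 rose by 0.66 ± 0.14 and 0.40 ± 0.13 (adjusted p = 0.00787 and 0.0442). The Parp14 call is fragile: a further probe of the gene gave -0.13, and its adjusted p was 0.0516 with the slide as a block and 0.219 with normexp. Ifi35, a partner of the signalling protein NMI, was very even between arrays, at 0.31 and 0.31 in WT normal and 1.04 and 1.10 in WT IRI (0.76 ± 0.07, adjusted p = 0.000404). Tap1, 1 of the 2 subunits of the pump that carries peptides to MHC class I, had a difference of 0.19 ± 0.17. Xaf1, Ifi44, Rtp4 and Trim30a did not pass, with differences from 0.07 to 0.26. The probe of Ifitm3, a membrane protein that blocks virus entry, was marked as an outlier spot on the second WT normal array and was not tested. Its other WT normal array stood at 2.78, its KD normal arrays at 3.36 and 2.67, its WT IRI arrays at 3.68 and 3.69 and its KD IRI arrays at 3.45 and 3.59.

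**Figure D2:**
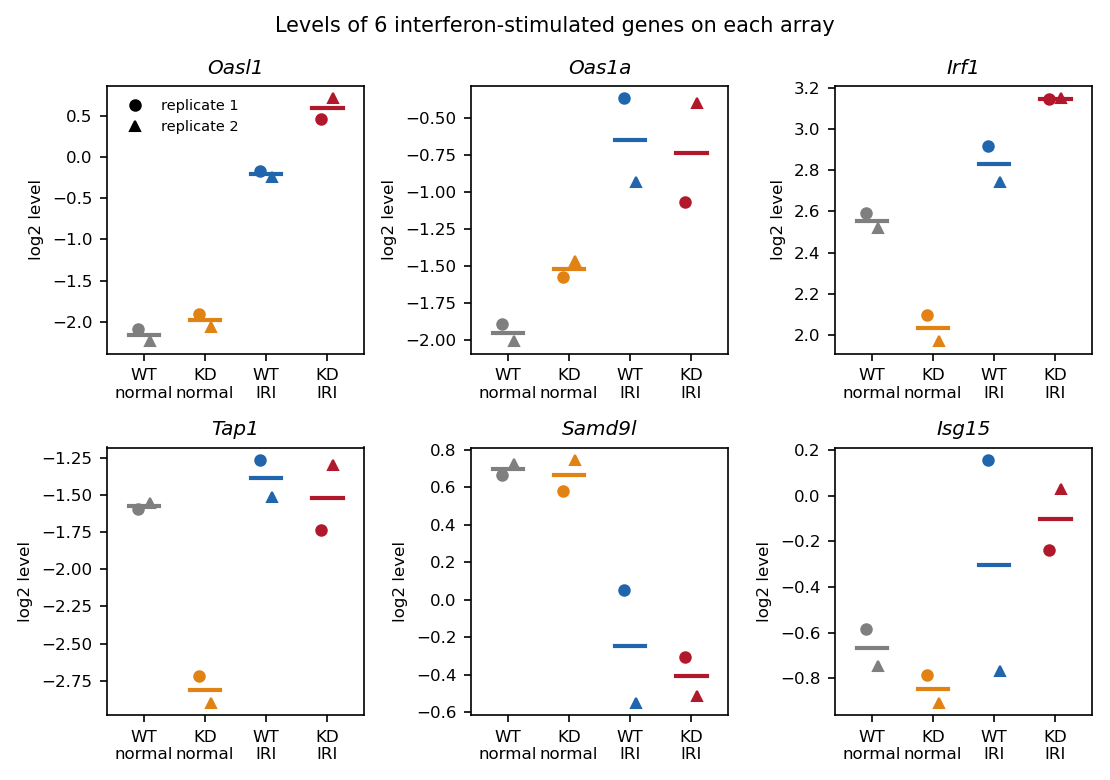
Log2 level (intensity relative to the 75th percentile of the array) of Oasl1, Oas1a, Irf1, Tap1, Samd9l and Isg15 on each array, with circles for replicate 1, triangles for replicate 2 and a line at each group mean (n = 2). Oasl1 lies above -0.3 on all 4 injured arrays and at or below -1.90 on all 4 uninjured arrays, while the 2 WT IRI arrays of Isg15 lie at 0.16 and -0.77.

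The 2 WT IRI arrays stood apart across the members. The first stood above the second in 29 of the 33 members, with a median difference of 0.47, whereas it stood above the second in 53.1% of all genes with a median difference of 0.02. In 15 of the 33 members the 2 arrays were over 0.5 apart, against 15.2% of all genes. In KD IRI the order was the other way round by slide: the second array stood above the first in 30 of 33 members (48.4% of all genes), and the median of the first minus the second was -0.27. The median WT injury response over the 33 members was 0.03 without the first WT IRI array and 0.42 without the second. It was 0.27 and 0.16 without the first and the second WT normal array, and 0.22 with all arrays. The calls for Oasl1, Oas1a, Samd9l, Parp9 and Ifi35 held whichever of the 8 arrays was left out. The other 9 calls were each lost in at least 1 of them.

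In Keap1 knockdown kidneys, injury was followed by a rise of 16 of the 33 members and a fall of 1, against 27.5% and 31.8% of all genes tested. The median over the members was 0.40, against -0.08 over all genes. Oasl1 again showed the largest difference, from -1.90 and -2.06 in KD normal to 0.47 and 0.72 in KD IRI (2.57 ± 0.12, a 5.95-fold rise, adjusted p = 1.88e-05). Tap1 rose from -2.72 and -2.90 to -1.73 and -1.30 (1.29 ± 0.17, adjusted p = 0.000658). Irf1 rose from 2.10 and 1.97 to 3.14 and 3.15 (1.11 ± 0.09, adjusted p = 7.68e-05). On both genes every injured KD array lay above every uninjured one. With normexp the Tap1 call was lost (0.41, adjusted p = 0.362) and the Irf1 call was kept.

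Herc6 rose by 1.06 ± 0.17 and Dhx58 by 0.99 ± 0.23 in KD (adjusted p = 0.00152 and 0.00863). With normexp the Herc6 difference turned to -0.18 (adjusted p = 0.852) and that of Dhx58 did not pass (0.34, adjusted p = 0.471). Ifi35 rose by 0.86 ± 0.07, Parp9 by 0.77 ± 0.14, Parp14 by 0.66 ± 0.13 and Bst2 by 0.73 ± 0.19. Ifih1 and Gbp2 rose by 0.52 ± 0.10 and 0.47 ± 0.13, Ifit2 by 0.56 ± 0.18, and Rtp4, a chaperone of membrane receptors, by 0.62 ± 0.22. Further probes did not pass for Parp14 (0.39 and 0.39), Ifih1 (0.35), Ifit2 (0.25) and Irf9 (0.49). The second probes of Irf1 (1.02) and Herc6 (1.23) did pass. So did that of Cmpk2 (1.64, adjusted p = 0.00385 over all probes), whose brighter probe gave 0.19 and did not. Of the 17 KD injury calls 9 were kept with normexp, and those lost also included Irf9, Ifih1, Ifit2, Oas1a and Parp9. The call for Rtp4 was lost with the slide as a block (adjusted p = 0.0595), and Isg15 passed with it (0.74 ± 0.27, adjusted p = 0.0488 with the block and 0.0517 without). In the OAS family Oas1a and Oasl2 rose by 0.78 ± 0.25 and 0.77 ± 0.20, and Oas2 did not pass, with a difference of 0.13 ± 0.27. Samd9l fell from 0.58 and 0.75 to -0.30 and -0.51 (-1.07 ± 0.19, adjusted p = 0.00269).

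The injury responses of the genotypes, which share no array, could be set side by side. Over the 33 members Pearson's r was 0.69 and Spearman's rho 0.63, as a description, since genes of 1 kidney are not independent; over all genes r was 0.82. Of the members that rose, 11 did so in both genotypes, which is 84.6% of those that rose in WT and 68.8% of those that rose in KD. Without Oas3 the first share was 91.7%. Over all genes the shares were 84.3% and 63.1%, so the overlap of the members was near that of the array as a whole. Samd9l fell in both. Oas2 passed in WT, and Gbp2, Ifih1, Ifit2, Rtp4 and Tap1 passed in KD, and for these only the test of the difference, given below, bears on whether the genotypes differ. In KD 10 calls held whichever of the 8 arrays was left out, among them Oasl1, Irf1, Tap1, Herc6, Dhx58, Ifih1 and Samd9l. The median KD injury response over the members was 0.56 without the first KD IRI array and 0.28 without the second, against 0.40 with all arrays.

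**Figure D3:**
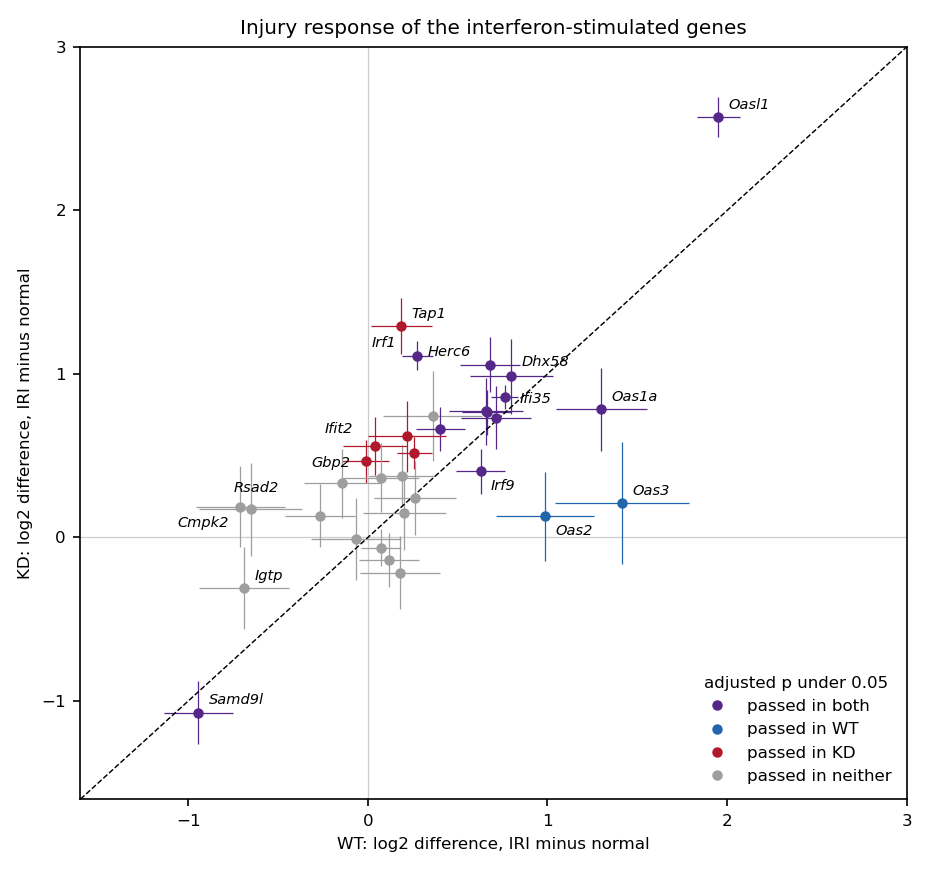
Log2 difference between injured and uninjured kidneys for each of the 33 members, WT on the x axis and KD on the y axis, with bars of 1 SE and a dashed line where both are equal. Oasl1 lies at 1.95 and 2.57, Samd9l at -0.94 and -1.07, and the 4 members furthest above the line are Tap1 (by 1.11), Cmpk2 (0.90), Irf1 (0.84) and Rsad2 (0.83). Oas3 is drawn at its measured values, although neither uninjured group was well above background.

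Without injury, 5 of the 33 members were lower in Keap1 knockdown kidneys and none was higher, while 8.78% of all genes tested were lower and 6.4% higher. At an unadjusted p under 0.05 limma gave 8 members lower and 2 higher. The 2 higher were OAS genes, a family in which Oas3 was not well above background in these groups. The share of all genes at an unadjusted p is not given here, so such counts are not read as results. The median over the members was -0.18, against -0.03 over all genes. The 5 that passed were Tap1, Cmpk2, Gbp2, Irf1 and Ifih1.

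Tap1 showed the largest difference. It stood at -1.59 and -1.55 in WT normal and at -2.72 and -2.90 in KD normal, so both KD arrays lay more than 1 log2 unit below both WT arrays (-1.24 ± 0.17, 2.36-fold, adjusted p = 0.00879). With normexp its difference was -0.58 and did not pass (adjusted p = 0.388). Irf1 stood at 2.59 and 2.52 against 2.10 and 1.97 (-0.52 ± 0.09, adjusted p = 0.0142). The second probe of Irf1 gave a smaller difference of -0.24 that did not pass (adjusted p = 0.295). Gbp2 stood at 0.39 and 0.45 against -0.05 and -0.36 (-0.63 ± 0.13, adjusted p = 0.0262). Cmpk2 stood at -0.81 and -0.76 against -1.59 and -1.85 (-0.93 ± 0.25, adjusted p = 0.0485), and its second probe gave a larger difference of -2.45 (adjusted p = 0.00753), while with normexp the call was lost (-0.57, adjusted p = 0.256). The smallest call was Ifih1, at -0.68 and -0.61 against -0.99 and -1.03 (-0.36 ± 0.10, adjusted p = 0.0497), and it was lost with the slide as a block (adjusted p = 0.0512) and with normexp (-0.21, adjusted p = 0.734).

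Several members next to these in role had lower values in KD normal without passing. Rsad2, the neighbour of Cmpk2, had a difference of -0.74 ± 0.28 (adjusted p = 0.125), Igtp one of -0.74 ± 0.25 (adjusted p = 0.0914), both of which passed as lower with normexp (adjusted p = 0.0154 and 0.00138), Gbp3 one of -0.45 ± 0.21 and Parp9 one of -0.44 ± 0.14. The OAS genes went the other way in value, with 0.77 ± 0.27 for Oas2 and 0.43 ± 0.25 for Oas1a, neither of which passed (adjusted p = 0.0979 and 0.288). Oas3 was not well above background on any array of these groups. None of the 5 calls held in every fit that left out 1 array. In those fits the difference ran from -1.33 to -1.15 for Tap1, from -1.06 to -0.80 for Cmpk2 and from -0.78 to -0.47 for Gbp2. It ran from -0.58 to -0.46 for Irf1 and from -0.40 to -0.33 for Ifih1. Fewer genes passed over the whole array too when a WT normal, KD normal or KD IRI array was left out. The KD IRI arrays enter only through the shared estimate of spread. All 5 kept their sign within each slide, as did the calls of every other comparison, so the sign adds no separate support.

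Other genes of the interferon system were also measured without injury. Of 68 further interferon-induced genes tested, 20 were lower in KD and 1 was higher, with a median of -0.28. Over all genes 8.78% were lower and 6.4% higher. The 3 largest falls were Ifit1bl1 (-1.31 ± 0.28), Psmb9 (-1.30 ± 0.19), a catalytic subunit of the immunoproteasome that cuts peptides for MHC class I, and Iigp1 (-1.05 ± 0.24), a GTPase of the Irgm1 family. The 1 gene higher was Znfx1 (0.34 ± 0.08), an RNA helicase that senses viral RNA. Psmb8 (-0.82 ± 0.14) and Psmb10 (-0.60 ± 0.10), the other immunoproteasome subunits, and Tap2 (-0.74 ± 0.14), the partner of Tap1, also passed, and they were picked out after their values were seen. Among factors and regulators, Irf8 (-0.75 ± 0.10), the RNA sensor Tlr3 (-1.50 ± 0.14), the signalling inhibitor Socs1 (-0.66 ± 0.17) and Pias3 (-0.42 ± 0.10) were lower, while Stat3 (0.48), the kinase Tbk1 (0.55 ± 0.12) and the phosphatase Ptpn1 (0.74) were higher. None of the 9 receptor and kinase genes passed after adjustment.

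Cell type markers differed between the same arrays, where 8.78% of all genes were lower in KD normal and 6.4% higher. The summed linear level of 6 T and NK cell markers ranged from 0.479 to 0.592 in WT normal and from 0.240 to 0.379 in KD normal, with 1 of the 6 called lower. For 3 B cell markers the ranges were 0.307 to 0.444 and 0.101 to 0.157, with 1 of 3 called lower. The defining genes Cd4, Ncr1, Klrk1 and Cd79a were well above background on at most 1 array. Of the markers tested, Ms4a1, Klrb1c, Retnlg, Cxcr2, Mmp8 and Itgam were well above background on at most 5 arrays, Csf3r on 4 and Cd3g on 3. Neutrophil markers, 6 tested, ranged from 0.246 to 0.253 in WT normal and from 0.738 to 6.18 in KD normal, with the higher value on the second array and none passing. Macrophage markers, 9 tested, ranged from 61.1 to 65.7 and from 68.3 to 69.6, with none passing. Of 6 markers of the loop, distal tubule and collecting duct 3 were called lower in KD normal, with summed levels of 375 to 386 in WT normal and 310 to 345 in KD normal, and of 3 podocyte markers 1 was called higher (2.12 to 2.32 against 2.68 to 2.82). No proximal tubule or endothelial marker, 6 tested of each, and no plasmacytoid dendritic cell marker, 3 tested, passed. The part of these markers in the lower levels of Tap1, Irf1 and Gbp2 was not tested.

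**Figure D4:**
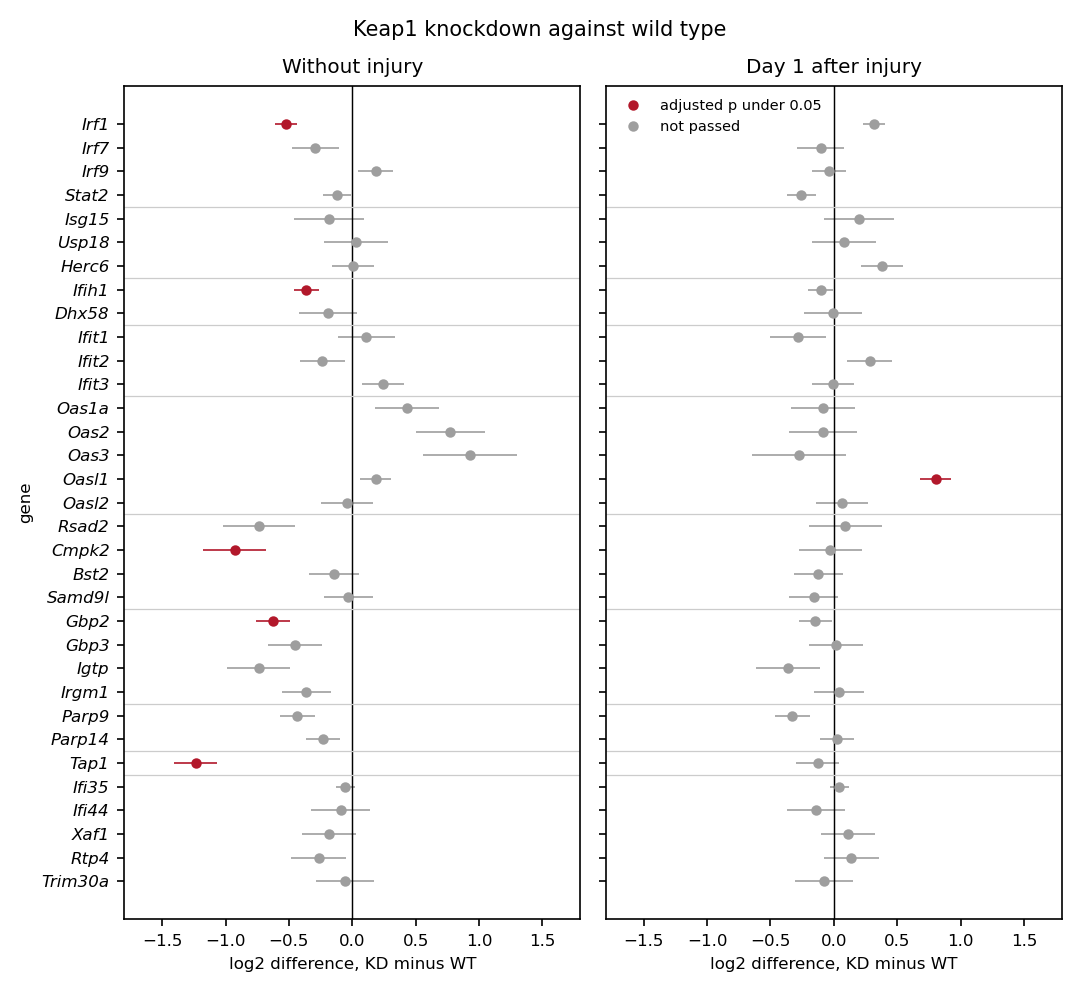
Log2 difference of KD minus WT for each of the 33 members without injury (left) and at day 1 after injury (right), with bars of 1 SE and red points where the adjusted p was under 0.05. On the left the 5 red points are Irf1, Ifih1, Cmpk2, Gbp2 and Tap1, all below 0; on the right Oasl1 at 0.80 is the single red point. Oas3 on the left compares arrays that were not well above background.

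At day 1 after injury, 1 of the 33 members was higher in KD than in WT and none was lower, against 3.69% of all genes higher and 3.42% lower. At an unadjusted p under 0.05 limma gave 2 members higher and 1 lower, counts that are likewise not read as results. Differences over the 33 members ran from -0.36 to 0.80 with a median of -0.03 and a median SE of 0.20. Differences of several times their SE could still miss the threshold, as that of Irf1 did. A member that did not pass is therefore not shown to be unchanged. Oasl1 stood at -0.17 and -0.25 in WT IRI and at 0.47 and 0.72 in KD IRI, so the KD arrays lay above both WT arrays (0.80 ± 0.12, 1.74-fold, adjusted p = 0.0196). The difference was 0.64 on the first slide and 0.96 on the second. The call was lost without either WT normal array, without either KD IRI array, and when only the 4 injured arrays were fitted. Fewer genes passed over the whole array in these fits too. Over the fits that left out 1 array the Oasl1 difference ran from 0.68 to 0.93. Tap1 had a difference of -0.13 ± 0.17 and Irf1 one of 0.32 ± 0.09 that missed the threshold (adjusted p = 0.0765).

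The interaction asks directly whether injury changed a gene more in KD than in WT. It passed for 2 members, both with the larger rise in KD, against 3.79% of all genes in that direction and 2.81% in the other. At an unadjusted p under 0.05 limma gave 5 members with the larger rise in KD and none with the smaller. The share of all genes is not given for these counts either, and they are not read as results. For Irf1 the KD response exceeded the WT response by 0.84 ± 0.12 (adjusted p = 0.0219), with 0.72 on the first slide and 0.95 on the second. For Tap1 it did so by 1.11 ± 0.24 (adjusted p = 0.0457), with 0.66 and 1.56 on the slides. The Tap1 call was lost with the slide as a block (adjusted p = 0.0548) and with normexp, which gave 0.10 (adjusted p = 0.88). The median interaction over all genes with normexp was -0.31.

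Before injury both genes were lower in KD, as given above. After it Tap1 stood at -1.26 and -1.51 in WT IRI and at -1.73 and -1.30 in KD IRI, with overlapping arrays, and Irf1 stood at 2.92 and 2.74 against 3.14 and 3.15, with the KD arrays higher. The second probe of Irf1 gave an interaction of 0.53 that did not pass (adjusted p = 0.166), and the second probe of Cmpk2 one of 2.43 that did (adjusted p = 0.0325 over all probes), where the brighter probe gave 0.90 ± 0.35 (adjusted p = 0.164). Neither the Irf1 nor the Tap1 call held in all fits that left out 1 array, and in most of these fits fewer genes passed over the whole array as well. The Irf1 call was lost without either WT normal array, either KD IRI array or the second KD normal array (values from 0.75 to 0.92, highest adjusted p = 0.101). The Tap1 call was lost in every such fit except the one without the first WT IRI array (values from 0.89 to 1.32, highest adjusted p = 0.152). For Oasl1, which rose most in both genotypes, the interaction was 0.62 ± 0.17 and did not pass (adjusted p = 0.0822), and for Oas2 it was -0.86 ± 0.38 (adjusted p = 0.212).

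Further genes of the pathway passed the same test. Psmb9 (1.25 ± 0.27), Tor3a (0.91 ± 0.12) and Psmb10 (0.83 ± 0.14) were the 3 of 68 other induced genes with a larger rise in KD, and none had a smaller one. Over all genes the shares were 3.79% and 2.81%. Socs1, an inhibitor of JAK kinases that interferon itself induces, differed by 1.28 ± 0.25, Irf8 by 0.93 ± 0.14 and Tlr3 by 1.15 ± 0.21. These were single calls in their lists: 1 of 13 inhibitors and 1 of 17 sensing genes had a larger response in KD and none a smaller one, while of 8 other STAT and IRF factors 1 had a larger and 1 a smaller response. None of the 4 ligand genes and none of the 9 receptor and kinase genes passed.

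Of 21 interferon ligand genes listed, 12 had a named probe, and Ifna2, Ifna9, Ifna13 and Ifnz were tested and well above background on all 8 arrays. The probes of Ifnb1 and Ifng were well above background on 0 and at most 1 of the 8 arrays. Ifna2 and Ifnz were lower after injury in WT (-1.36 ± 0.38 and -0.60 ± 0.14), and Ifnz and Ifna9 in KD (-0.65 ± 0.14 and -0.48). By contrast 6 of 9 receptor and kinase genes rose in WT, led by Ifngr2 (1.28 ± 0.15), Tyk2 (0.57 ± 0.10) and Ifngr1 (0.51 ± 0.12), and 4 rose in KD, led by Ifngr2 (1.53). None fell in either genotype. Over all genes 20.6% rose and 25.2% fell in WT, and 27.5% rose and 31.8% fell in KD.

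Of 17 genes tested that detect nucleic acids upstream of interferon, 8 rose and 1 fell in WT, and 8 rose and 3 fell in KD. Over all genes 20.6% rose and 25.2% fell in WT, and 27.5% rose and 31.8% fell in KD. Sting1, the adaptor for cytosolic DNA, rose by 2.27 ± 0.14 in WT and 1.90 in KD, and Cgas, the enzyme that signals to it, by 1.44 ± 0.24 and 1.85. Myd88 rose by 1.15 ± 0.12 and 1.00, and Tlr9, an endosomal DNA receptor, fell by 1.13 in WT and by 0.85 in KD. Of the 13 inhibitors, Socs3 rose by 3.87 ± 0.46 in WT and 2.69 ± 0.46 in KD, and Socs1 rose in KD (1.62 ± 0.17) with a WT difference of 0.34 ± 0.17 (adjusted p = 0.155).

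Of the 68 other induced genes, 21 rose and 9 fell in WT, and 33 rose and 7 fell in KD. The shares over all genes were 20.6% and 25.2% in WT, and 27.5% and 31.8% in KD. The largest rises in WT were Ms4a4c (2.21 ± 0.28), the exonuclease gene Isg20 (2.08 ± 0.54) and Xdh (1.29 ± 0.22), the enzyme that makes uric acid. The largest falls were the chemokine Cxcl9 (-2.92 ± 0.52) and the GTPases Tgtp1 (-1.66 ± 0.31) and Gbp6 (-1.47 ± 0.38). In KD the chemokine Cxcl10 (2.20 ± 0.38), Psmb10 (1.77 ± 0.10) and the antiviral zinc finger gene Zc3hav1 (1.69 ± 0.14) rose most, and Cxcl9 (-1.96 ± 0.52), Gbp6 (-1.25 ± 0.38) and Ifit1bl1 (-0.77 ± 0.28) fell most.

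Cell type markers moved with injury on the same arrays, where 20.6% of all genes rose and 25.2% fell in WT, and 27.5% and 31.8% in KD. All 6 neutrophil markers tested were called higher in both genotypes. Their summed linear level ranged from 49.0 to 105 in WT IRI and from 52.8 to 58.7 in KD IRI. Of these markers, only S100a9 was well above background on all 8 arrays. S100a8 was so on 6 arrays, Retnlg, Cxcr2 and Mmp8 on at most 5, and Csf3r on 4. Such markers may have entered the test only through groups where they were bright, so their calls are not read as rises. Of 9 macrophage markers 7 were called higher and 1 lower in each genotype, with summed levels of 81.5 to 94.0 in WT IRI and 78.5 to 90.0 in KD IRI. Itgam, among the 9, was well above background on at most 5 arrays, so its difference is not read as a change. Of 6 T and NK cell markers 4 were called lower in WT and 2 in KD. Of these 6, Cd3g was well above background on 3 arrays, Klrb1c on at most 5, and Cd8a and Gzmb on at most 7. The T and NK cell counts are therefore not read as falls. All 6 proximal tubule markers fell in both genotypes. Of 3 B cell markers none passed in WT and 2 rose in KD, and their interactions did not pass. Their summed levels were 0.189 to 0.307 in WT IRI and 0.246 to 0.275 in KD IRI. Ms4a1, among the 3, was well above background on 5 of the 8 arrays. Of the 3 markers tested of plasmacytoid dendritic cells, a cell type known for interferon production, none passed in WT and 1 fell in KD, and Siglech was not well above background on any array. In WT IRI the neutrophil sum was 49.0 on the first array, which had the higher levels of 29 members, and 105 on the second. The macrophage sum was 81.5 and 94.0, and the endothelial sum 28.1 and 28.5. Sums higher on the first array were proximal tubule (220 and 130) and loop, distal tubule and collecting duct (242 and 221). So were those of T and NK cells (0.258 and 0.162), B cells (0.307 and 0.189) and podocytes (2.56 and 2.37). For plasmacytoid dendritic cells they were 2.82 and 2.83. The part of these cells in the member levels was not tested.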

How the data were processed

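The members and the gene lists were chosen with earlier results of these data known. Per the file headers, the deposited scanner files hold fluorescence intensity that Agilent Feature Extraction 10.7.3.1 had background-subtracted and detrended on a linear scale. The deposited series table holds log2 values; how the authors scaled and centred it is not stated, its columns correlated at 0.998 or more with the centred log2 scanner values, and its column medians ran from -0.136 to 0.158. It served as an alternative.

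Control spots were left out, as were probes with an outlier spot on any array. Probes had to be well above background on each array of some group (27409 of 41174 probes). The brightest probe stood for a gene; 14101 of the 20581 genes have a symbol, through RefSeq accessions, and the rest keep the file's identifier. Every member is reported; of other lists, counts and up to 3 largest rises and falls past the threshold, plus Keap1 and Nqo1. Some genes of these lists are not reported here.

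The 4 groups were compared in limma 3.58.1 under R 4.3.3 (lmFit, eBayes with an intensity trend, 4 residual degrees of freedom, two-sided, Benjamini-Hochberg) on all 8 arrays. The fit was first tested on simulated data. Replicate numbers coincide with the 2 slides of the file headers; deviations of same-numbered arrays from their group means correlated at 0.02 to 0.26. The number of arrays limits the precision.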

Additional observations from a re-analysis of the deposited data

Results flagged for a closer look

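Irf1 differed in its injury response between genotypes: the response in KD exceeded that in WT by 0.84 on the log2 scale (limma interaction, adjusted p = 0.0219), with 0.72 on the first slide and 0.95 on the second. A second probe of the gene gave 0.53 (adjusted p = 0.166).

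Tap1 differed in the same way, by 1.11 (limma interaction, adjusted p = 0.0457), with 0.66 and 1.56 on the slides and an adjusted p of 0.0548 with the slide as a block. With normexp background correction the value was 0.10 (adjusted p = 0.88), where the median over all genes was -0.31. Of the 33 members these 2 passed the test of the difference. KD normal arrays, on which both genes were lowest, enter this test and the comparison without injury alike.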

How the results depend on the processing

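With 2 arrays a group, most calls depend on single arrays. Leaving out 1 array gave 6 to 15 member calls in the WT injury response (14 with all arrays), 0 to 5 in KD against WT without injury (5), 0 to 1 after injury (1), 10 to 19 in the KD injury response (17) and 0 to 4 in the interaction (2). Without injury the count was 3 with the deposited log2 table, 2 with no filter on dim probes, 3 with no intensity trend and 3 with outlier spots kept, an alternative chosen after seeing the data. The deposited table was also fitted without the intensity trend, so its counts here and in the interaction are not separate from that setting. After injury it was 0 when only the arrays compared were fitted. Normexp background correction, run on the median signals, gave 10 calls in the KD injury response. The interaction count was 1 with normexp, the deposited table, no filter, no intensity trend, outlier spots kept, or the replicate block, which is the slide block. Elsewhere the block moved no count by over 1.5 times; it ended the calls for Parp14 in the WT injury response, Ifih1 without injury, Rtp4 in the KD injury response and Tap1 in the interaction, and it added Cmpk2 and Igtp, both lower, in the WT injury response (12 higher and 3 lower in place of 13 and 1) and Isg15 in the KD injury response. Leaving out Oas3, also chosen after seeing the data, gave 13 calls in the WT injury response and the same counts elsewhere. The other settings left each count within 1.5 times.

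Normexp shifted the median of all genes by 0.28, 0.17, -0.18, -0.26 and -0.31 in the order of the comparisons above, and split the WT injury calls into 8 higher and 3 lower. The other settings on all 8 arrays gave 10 to 13 higher and 1 to 3 lower. Of the calls made without it, normexp kept 9 of 14 in the WT injury response, 2 of 5 without injury, 1 of 1 after injury, 9 of 17 in the KD injury response and 1 of 2 in the interaction. With it the KD injury response of Herc6 reversed to -0.18 (adjusted p = 0.852). Herc6 has 2 probes of similar level, and normexp may have picked the other one. A further probe of Parp14 reversed its WT injury response to -0.13 (adjusted p = 0.638). The cause of either reversal was not tested. Of the members tested, only Oas3 was not well above background on all 8 arrays. Herc6 was dim as well, at -4.12 and -4.07 on the WT normal arrays and -4.21 and -3.98 on the KD normal arrays. The lowest levels well above background on these arrays ran from -5.08 to -5.60.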

Other observations

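Ifitm3 was tested only with outlier spots kept, where its marked WT normal spot read 3.41. The injury response was then 0.59 in WT (adjusted p = 0.111) and 0.50 in KD (adjusted p = 0.142), and KD differed from WT by -0.08 without injury and by -0.17 after it.

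Cd274, the checkpoint ligand PD-L1 and an interferon-induced gene picked out here after its values were seen, was lower after injury in WT (-0.99 ± 0.14, adjusted p = 0.0014). In KD its injury difference was -0.15 ± 0.14 (adjusted p = 0.369), from a level without injury that was already lower than in WT (-0.91 ± 0.14, adjusted p = 0.0104). The interaction was 0.84 ± 0.19 and missed the threshold (adjusted p = 0.0505).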
